A study of Mus musculus with 6 samples.

Results

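The genes described here mark macrophages and other leukocytes in the mouse heart. They are Cd163, Mrc1, C1qa and C1qb, typical of the macrophages that reside in the heart, and Cd68, Csf1r, Cd14, Ptprc, Itgam and Fcgr3, which are shared more widely among myeloid cells or leukocytes. Members were all probes other than controls whose gene name in the scanner files was one of these 10 genes, which gave 10 of 27745 gene names and 17 of the 41174 different probes on the arrays. RNA came from the hearts of 3 wild-type (WT) mice and 3 transgenic mice overexpressing prokineticin receptor 1 (TG-PKR1, TG), all of them 12-week-old males. Each heart was hybridized to its own single-colour Agilent array. As the study describes the mice, the transgene was driven by the cardiomyocyte-specific αMHC promoter and mice were kept on a C57BL6/J background. The transgene was thus aimed at cardiomyocytes and not at leukocytes, and the expression of the transgene could not be checked here, since the Prokr1 probe, which targets the PKR1 transcript, was well above background on 0 of 6 arrays. The hearts are numbered 1 to 3 within a genotype, and the numbers pair no animals. The labels name mice but do not say more of their origin, so p-values measure the spread between these hearts.

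Macrophages are the main leukocytes of a healthy heart. Resident ones take up dying cells and debris, and carry scavenger and lectin receptors such as CD163, which clears haemoglobin bound to haptoglobin, and MRC1, the mannose receptor. They also secrete C1q, which starts the classical complement cascade and tags material for uptake. Their survival depends on the receptor CSF1R, whose ligands are CSF1 and IL34, and their genes are under the transcription factor PU.1. Other members are read more broadly, since PTPRC (CD45) lies on all leukocytes, ITGAM (CD11b) on myeloid and some lymphoid cells, CD14 binds endotoxin, FCGR3 binds immunoglobulin G and CD68 is a protein of late endosomes and lysosomes. In heart RNA, fewer cells of a type and less RNA per cell cannot be told apart.

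Promoter sequences are shown for 4 members on which the results turn, namely 3 resident genes that took different orders across the hearts and Ptprc, with the largest difference between genotypes. They come from RefSeq (GRCm38.p6), 250 bases before to 50 bases after the start site of the gene, written 5′ to 3′ on the strand of the gene. Capitals mark GAGGAA or its reverse complement TTCCTC, the core that PU.1 can bind. The windows are chr4:136886151-136886450 (minus strand) for C1qb, chr6:124304401-124304700 (plus strand) for Cd163, chr2:14229164-14229463 (plus strand) for Mrc1 and chr1:138175256-138175555 (minus strand) for Ptprc.
C1qb: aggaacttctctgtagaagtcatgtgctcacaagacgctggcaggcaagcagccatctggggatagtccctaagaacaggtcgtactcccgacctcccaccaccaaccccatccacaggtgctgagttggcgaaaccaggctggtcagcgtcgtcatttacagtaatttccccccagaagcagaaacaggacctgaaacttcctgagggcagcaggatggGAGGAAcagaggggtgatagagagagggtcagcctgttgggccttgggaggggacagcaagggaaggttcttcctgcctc
Cd163: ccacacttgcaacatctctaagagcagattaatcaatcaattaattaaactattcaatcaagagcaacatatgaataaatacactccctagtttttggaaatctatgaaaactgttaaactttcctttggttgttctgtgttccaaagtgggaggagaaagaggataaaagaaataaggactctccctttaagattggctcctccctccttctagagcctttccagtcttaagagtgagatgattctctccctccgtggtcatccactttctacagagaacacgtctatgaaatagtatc
Mrc1: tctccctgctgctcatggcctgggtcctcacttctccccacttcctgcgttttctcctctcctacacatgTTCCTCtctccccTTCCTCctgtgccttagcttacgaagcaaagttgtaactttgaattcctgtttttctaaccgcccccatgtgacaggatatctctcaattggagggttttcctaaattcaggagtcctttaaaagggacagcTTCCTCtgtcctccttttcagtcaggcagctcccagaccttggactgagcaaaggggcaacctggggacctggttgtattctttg
Ptprc: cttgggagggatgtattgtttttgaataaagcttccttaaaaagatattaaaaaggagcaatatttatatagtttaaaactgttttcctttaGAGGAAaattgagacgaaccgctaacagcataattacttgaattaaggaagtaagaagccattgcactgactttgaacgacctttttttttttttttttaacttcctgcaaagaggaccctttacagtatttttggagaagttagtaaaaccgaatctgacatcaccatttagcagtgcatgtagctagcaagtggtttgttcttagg

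These letters begin 30 bases before the start site in C1qb, 180, 167 and 35 bases before it in Mrc1, and 158 bases before it in Ptprc, and the window of Cd163 does not hold them. Of the 7 members with a window that was searched, 6 held GAGGAA on either strand in at least 1 window. Of 32851 promoter windows of this length, 28.3% held it, a share counted by window and not by gene. Itgam held it at 3 places, Cd68 at 2 and Fcgr3 at 1. TGCTGAC, part of the element bound by MAF factors, was in the windows of 1 of the 7, Fcgr3. Counted by window, 4.67% of all windows held TGCTGAC. Both strands were searched, the 2 motifs overlapped at 0 places in these windows, and a match is a description of the window. Of the 2 start sites listed for Ptprc, the one shown held GAGGAA and the other did not. The windows of C1qa, Cd14 and Csf1r were not used here.

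All 10 genes had a probe well above background on 6 of 6 arrays, and none of the 17 probes was saturated, so macrophage transcripts were measured in every heart of both genotypes. Of the 17 probes, 12 were among the 20000 brightest that were tested. The other 5, of Ptprc (3 probes), Csf1r and Itgam, were well above background on 0 to 4 arrays. The log2 values below are normalized signals of 1 probe, and levels of different probes cannot be set against each other. Where a gene had several probes, the brightest over the 6 hearts stands for it.

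No member was called different between genotypes. limma called 0 of 12 member probes at a Benjamini-Hochberg adjusted p under 0.05 (smallest adjusted p 0.9999, smallest unadjusted p 0.118), where it called 0.095% of the 20000 probes. At an unadjusted p under 0.05, it called 0 member probes and 2.38% of all. SAM (significance analysis of microarrays, run over all 20 assignments of the hearts) called 0 members lower in TG hearts, against 0.281% of 19955 probes. The values of WT and TG hearts overlapped for 17 of 17 member probes. Over all probes they did not overlap, with TG hearts lower, for 2.73%, and with TG hearts higher for 2.68%. A count of 0 of 12 is near each of these backgrounds, so the intervals below carry the comparison. In a two-sided exact permutation test of a single gene, 3 hearts against 3 cannot give a p below 0.1.

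**Figure D1:**
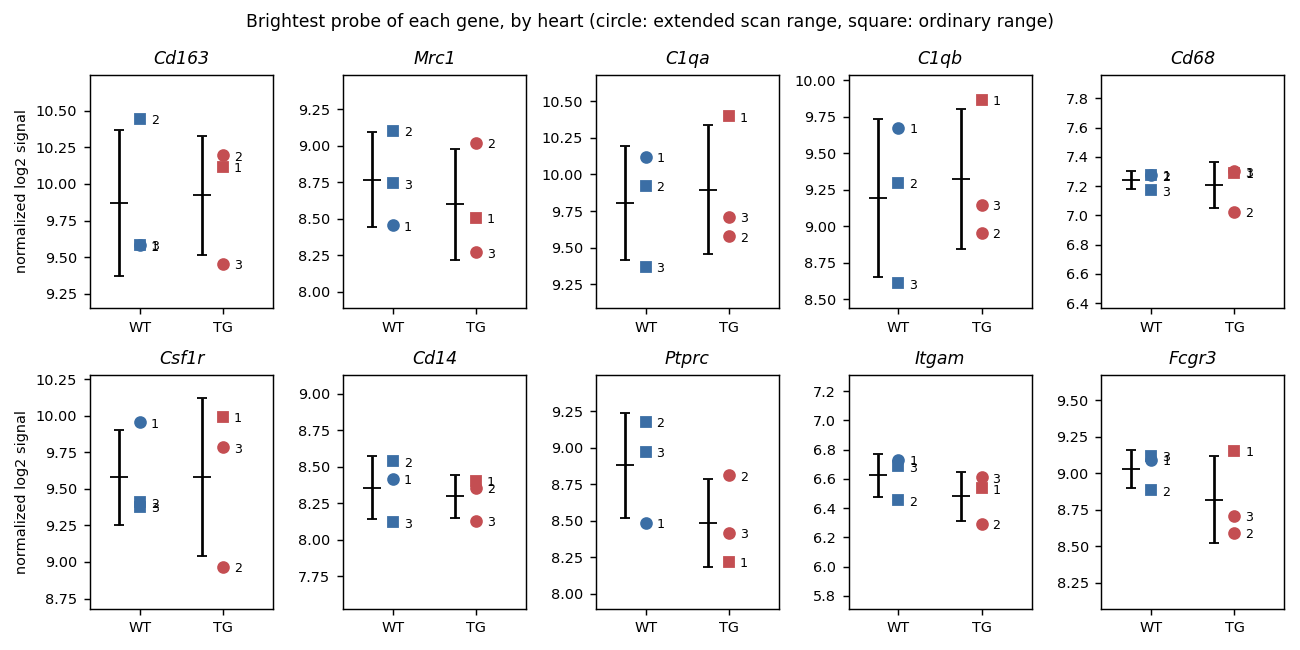
Normalized log2 signal of the brightest probe of each of the 10 genes, with 1 point per heart, the heart's number beside it, and the mean and SD of each genotype (n = 3) to its left. Circles are arrays with the extended scan range, squares those with the ordinary range, and every panel spans the same number of log2 units; WT and TG hearts overlap in all 10 panels.

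Of the 4 resident macrophage genes, 3 had a slightly higher TG mean and 1, Mrc1, a lower one, with hearts of 1 genotype lying far apart. Cd163, the haemoglobin scavenger receptor (probe on chromosome 6 from 124296085 to 124296144 of mm8, the build of the files), gave 9.58, 10.44 and 9.58 in WT hearts 1 to 3 and 10.12, 10.20 and 9.45 in TG hearts 1 to 3. WT heart 2 was highest and TG heart 3 lowest, and the other hearts of each genotype lay between. The difference of TG minus WT was 0.05 (SE 0.29, 95% interval -0.61 to 0.71), which leaves room for 0.66 to 1.64 times the WT level. Mrc1, the mannose receptor (chromosome 2, 14249431 to 14249491), gave 8.46, 9.10 and 8.74 in WT and 8.51, 9.02 and 8.27 in TG hearts. WT heart 2 and TG heart 2 were again the highest, and TG heart 3 again the lowest. The Mrc1 difference was -0.17 (SE 0.24, 95% interval -0.72 to 0.38).

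C1qa and C1qb, chains of C1q, took another order. C1qa (chromosome 4, 136168570 to 136168629) gave 10.12, 9.92 and 9.37 in WT hearts and 10.40, 9.58 and 9.71 in TG hearts. C1qb, a gene of the same cluster (136152739 to 136152798), gave 9.67, 9.30 and 8.61 in WT and 9.87, 8.96 and 9.15 in TG hearts. Both had TG heart 1 highest, WT heart 1 next and WT heart 3 lowest, and the 6 hearts fell in the same order for both genes. The difference was 0.09 for C1qa (SE 0.27, 95% interval -0.52 to 0.70). It was 0.13 for C1qb (SE 0.32, 95% interval -0.59 to 0.85), the widest interval among the brightest probes of the members. The SD of C1qb was 0.54 among WT and 0.48 among TG hearts. C1qc, the remaining C1q chain, whose product joins those of C1qa and C1qb in 1 protein, differed by -0.02 and gave 11.35, 11.70 and 10.76 in WT and 11.52, 11.32 and 10.90 in TG hearts. It did not share their order, with WT heart 2 highest and TG heart 1 next.

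The general leukocyte genes had a lower or nearly equal TG mean, each with overlapping hearts and a 95% interval that included 0. Ptprc, the common leukocyte phosphatase CD45 (chromosome 1, 139879923 to 139879982), gave 8.48, 9.18 and 8.97 in WT hearts and 8.22, 8.81 and 8.42 in TG hearts. WT hearts 2 and 3 were above all TG hearts, but WT heart 1 lay below TG heart 2. The difference of -0.40 (SE 0.23, 95% interval -0.92 to 0.12) was the largest among the brightest member probes (limma unadjusted p = 0.118, adjusted p = 0.9999; two-sided exact permutation p = 0.2). Its interval runs from 0.53 to 1.09 times the WT level. This probe had 10 spots on each array, of which 9 or 10 were used, and the SD among spots of 1 array was 0.08 to 0.17. The SD among hearts was 0.36 in WT and 0.30 in TG hearts, which also holds differences between arrays. With a heart left out, the difference ranged from -0.25 without WT heart 2 to -0.59 without WT heart 1, and it was -0.26 without TG heart 1. Without WT heart 1, and likewise without TG heart 2 (difference -0.56), 1 member probe passed an unadjusted p of 0.05, with 0 past the adjusted threshold. The dimmer Ptprc probes, which were not tested, differed by -0.03, -0.07 and -0.04 and were well above background on 4, 0 and 0 arrays. The first of them had TG heart 3 highest and TG heart 2 lowest, unlike the brightest probe.

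Csf1r, the receptor that macrophages need to survive, did not differ in mean. Its brightest probe (chromosome 18, 61256099 to 61256158) gave 9.95, 9.41 and 9.38 in WT and 9.99, 8.97 and 9.78 in TG hearts, a difference of 0.00 (SE 0.28, 95% interval -0.65 to 0.65). A further probe, with coordinates spanning 361 bases, gave 8.17, 7.74 and 7.61 in WT and 8.38, 7.52 and 8.07 in TG hearts, a difference of 0.15 (SE 0.25). Both Csf1r probes placed the 6 hearts in 1 order, from TG heart 1 and WT heart 1 at the top to TG heart 2 at the bottom. TG hearts therefore held both the highest and the lowest value of this gene.

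Fcgr3, the low-affinity receptor for immunoglobulin G (chromosome 1, 172888191 to 172888266), gave 9.09, 8.88 and 9.12 in WT and 9.15, 8.59 and 8.71 in TG hearts. TG hearts 2 and 3 lay below all WT hearts and TG heart 1 above them. The difference was -0.21 (SE 0.18, 95% interval -0.64 to 0.21), and a dimmer probe of the gene gave -0.11 (SE 0.17). Itgam, the integrin chain CD11b (chromosome 7, 127909109 to 127909168), was the dimmest tested member, at 6.73, 6.45 and 6.68 in WT and 6.53, 6.29 and 6.61 in TG hearts, a difference of -0.14 (SE 0.16, 95% interval -0.51 to 0.22). Its hearts overlapped, with TG heart 2 lowest. A dimmer Itgam probe, not tested and well above background on 3 arrays, differed by 0.004. The Itgam difference depended on the processing, at -0.48 with the processed signal and -0.54 when loess was replaced by 75th percentile scaling. With quantile normalization in place of loess it was -0.11, and it passed the threshold in none of these.

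Cd68 and Cd14 had the smallest ranges over the 6 hearts among the brightest member probes. Cd68, the lysosomal protein of phagocytes (chromosome 11, 69481007 to 69481066), gave 7.28, 7.27 and 7.17 in WT and 7.29, 7.02 and 7.30 in TG hearts. The hearts spanned 0.28 log2 units, the smallest range of the 12 tested probes, and the difference was -0.03 (SE 0.15, 95% interval -0.37 to 0.31). Cd14, the endotoxin co-receptor (chromosome 18, 36851289 to 36851348), gave 8.42, 8.54 and 8.12 in WT and 8.41, 8.36 and 8.13 in TG hearts, a difference of -0.06 (SE 0.17, 95% interval -0.44 to 0.32). The Cd68 difference was -0.24 when loess was replaced by 75th percentile scaling. These intervals refer to signals without background subtraction, so a change of the transcript itself can be larger.

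**Figure D2:**
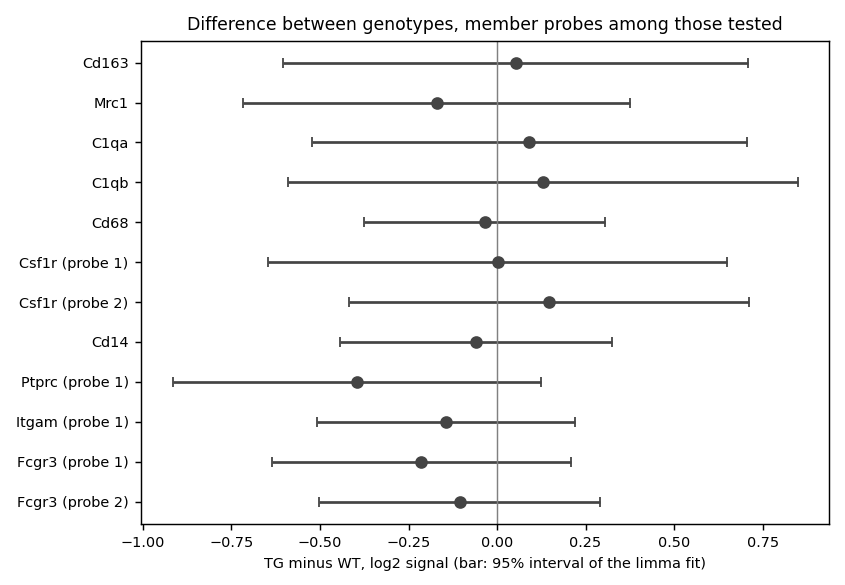
Difference of TG minus WT hearts in log2 signal for the 12 member probes tested, with the 95% interval from limma (n = 3 hearts per genotype). All 12 intervals include 0, and that of Ptprc, from -0.92 to 0.12, lies furthest to the left.

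The resident genes were set against the general leukocyte genes as a description, with no test. The median difference was 0.07 over the 4 resident genes and -0.10 over the 6 general ones, beside a median of 0.03 over all 20000 probes. By heart, after subtracting from each gene its mean over the WT hearts, the median of the resident genes was 0.01, 0.23 and -0.36 in WT hearts and 0.42, 0.01 and -0.26 in TG hearts. That of the general genes was 0.06, -0.06 and 0.00 in WT and 0.05, -0.27 and -0.12 in TG hearts. Resident minus general was -0.05, 0.29 and -0.36 in WT and 0.37, 0.28 and -0.14 in TG hearts. The genotypes overlapped in this measure, and the SD of hearts within a genotype, 0.30, exceeded the gap of 0.17 between the medians. Without WT heart 3 the gap was 0.00, since the resident median became -0.14 beside -0.14 for the general genes. Without TG heart 1 it was 0.06, with a resident median of -0.13. It was 0.37 when loess was replaced by 75th percentile scaling.

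The members differed in how far the hearts of 1 genotype lay apart and in which hearts were high. Over the 12 tested probes, the SD of 3 hearts ranged from 0.06, for Cd68 in WT, to 0.54, for Csf1r in TG and C1qb in WT hearts. WT heart 1 and TG heart 1 held the 2 highest values for 5 of the 12 tested probes, those of C1qa, C1qb, Csf1r (both probes) and the dimmer Fcgr3 probe, where 11.9% of all probes showed this. The 5 probes are not independent, since they include both Csf1r probes and the neighbouring genes C1qa and C1qb. The brightest Fcgr3 probe had TG heart 1 and WT heart 3 highest. WT heart 2 and TG heart 2 held the 2 highest values for 2 of 12, Cd163 and Mrc1, against 17.3% of all probes. That pair was thus no more common here than elsewhere. Averaged over C1qa and C1qb, relative to the WT mean, the hearts stood at 0.40, 0.11 and -0.51 in WT and 0.63, -0.23 and -0.07 in TG. Averaged over Cd163 and Mrc1 they stood at -0.30, 0.46 and -0.15 in WT and -0.01, 0.29 and -0.46 in TG. WT heart 1 was thus above the WT mean for C1qa and C1qb and below it for the 2 receptors, although both pairs mark resident macrophages.

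**Figure D3:**
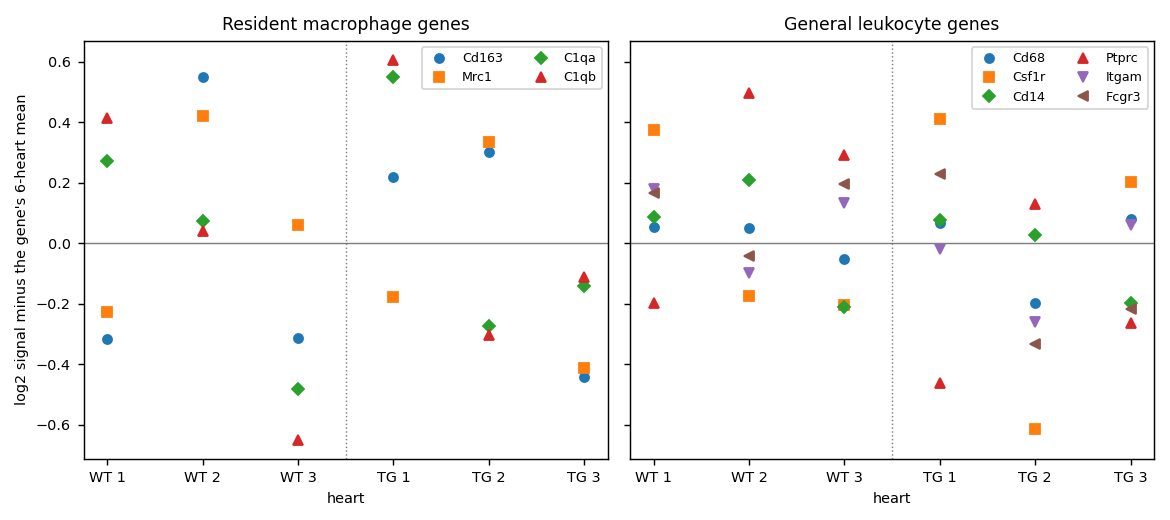
Log2 signal of each member gene in each heart, minus the mean of that gene over the 6 hearts, for the 4 resident genes and the 6 general leukocyte genes. C1qa and C1qb are highest in WT heart 1 and TG heart 1, Cd163 and Mrc1 in WT heart 2 and TG heart 2, and neither pattern follows the dotted line between genotypes.

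Erythroid markers were also high in WT heart 1 and TG heart 1. The erythroid markers Alas2, Hba-a1 and Slc4a1, relative to the WT mean, had a median of 0.68, -0.22 and -0.46 in WT hearts and 0.49, -1.06 and 0.63 in TG hearts, with TG heart 3 high as well. Their part in the order of C1qa and C1qb was not tested. The cardiomyocyte markers had a median of 0.15, 0.23 and -0.31 in WT and 0.46, -0.22 and -0.01 in TG hearts. The arrays also differed in scan range. All file headers mark an extended-range extraction, but the saturation value was 559351 to 569418 for WT heart 1 and TG hearts 2 and 3 and 65265 to 65266 for WT hearts 2 and 3 and TG heart 1. The latter are called ordinary range here, which is inferred from these values and not stated in the headers. Their 75th percentile signal was 11.4 to 14.1 times the local background with the extended range and 2.08 to 3.97 times with the ordinary one. WT heart 1 and TG heart 1, the hearts highest for C1qa and C1qb, were of different ranges.

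For 8 of the 10 members, the difference between genotypes had opposite signs in the 2 scan ranges, as it had for 69.8% of 19955 probes, so this was common over the arrays as a whole. C1qa differed by -0.48 within the extended range and 0.75 within the ordinary range, and C1qb by -0.62 and 0.91. Csf1r gave -0.58 and 0.60, and Ptprc 0.13 and -0.86. Each range holds 3 hearts, with 1 heart alone in its genotype, so these are values without a test. Cd163, with 0.24 and 0.10, and Itgam, with -0.28 and -0.04, kept 1 sign, and Mrc1 gave 0.19 and -0.42. With the range as a block in the fit, the median over the resident genes was 0.14 and over the general genes -0.10, and 0 member probes passed the threshold. The single slide that carried both genotypes, with WT heart 2 and TG heart 1, gave 0.48 for C1qa, -0.33 for Cd163 and -0.96 for Ptprc.

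**Figure D4:**
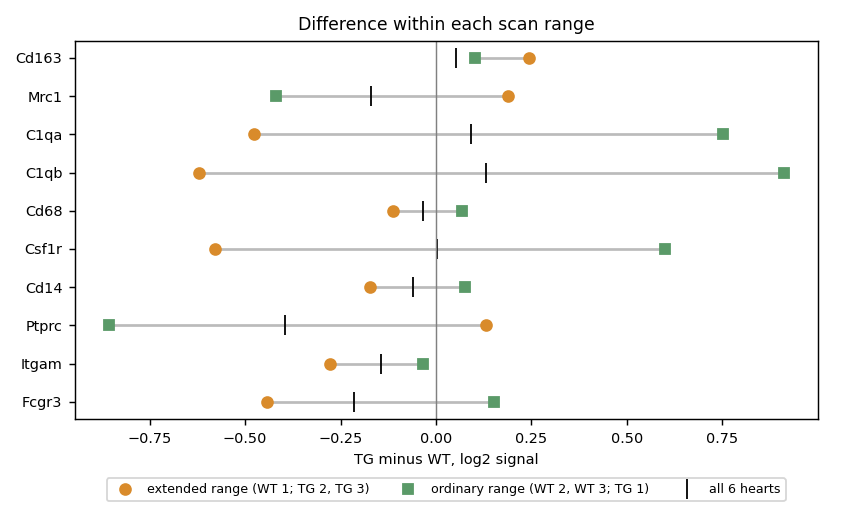
Difference of TG minus WT in log2 signal for the 10 members, within the extended scan range (circle), within the ordinary range (square) and over all 6 hearts (tick). C1qa, C1qb and Csf1r lie left of 0 in the extended range and right of it in the ordinary range, and Ptprc the other way round.

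Other genes of macrophage function were taken from lists written by hand. Of 77 such genes with a tested probe, limma called 0 (smallest adjusted p 0.257, with 7 genes at an unadjusted p under 0.05) and SAM called 1, Hp. The TG mean was lower for 57 and higher for 20, with a median difference of -0.12, while 41.8% of all 20000 probes were lower and their median was 0.03. The hearts did not overlap for 8 of the 77, all lower in TG hearts, against the 2.73% given above. The number with a lower mean was 44 of 77 within the ordinary range and 54 of 77 within the extended range, where 49.4% and 51.0% of all probes were lower.

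The further genes of resident cardiac macrophages showed no common direction, with 7 of 16 lower and 9 higher in TG hearts and a median of 0.05. Adgre1, which encodes a surface receptor used to mark mouse macrophages, gave 9.69, 10.70 and 10.10 in WT and 9.05, 10.24 and 9.80 in TG hearts (difference -0.47, limma adjusted p = 0.9999). Its difference was 0.33 within the extended range and -1.35 within the ordinary one. Cx3cr1, the fractalkine receptor, differed by -0.11. Marco, a scavenger receptor of some macrophages, stood apart with 9.21, 9.07 and 7.92 in WT and 7.36, 7.15 and 7.30 in TG hearts. Every TG heart lay below every WT heart, by -1.46 on average, and the limma adjusted p was 0.372. Over the 23 alternative values computed for Marco, the difference stayed between -1.99 and -1.14, and its smallest adjusted p was 0.0913.

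In the scavenger and haemoglobin list, Hp, which encodes haptoglobin, the plasma protein whose complex with haemoglobin CD163 takes up, gave 12.80, 12.50 and 11.99 in WT and 11.50, 10.57 and 10.89 in TG hearts. The hearts did not overlap, and the difference was -1.44 (SE 0.28, limma adjusted p = 0.257), called lower by SAM. It was lower in all 23 alternatives that gave a value, from -2.07 within the extended-range arrays to -0.75 within the ordinary-range arrays. Its receptor gene Cd163 differed by 0.05 in the same hearts. In 7 of the 8 genes of this list the TG mean was lower, with a median of -0.13.

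Among tested complement genes beyond the members, the TG mean was lower for 7 of 8, with a median of -0.20. C2, a protease of the classical pathway downstream of C1q, gave 10.68, 10.75 and 10.21 in WT and 9.92, 10.18 and 9.85 in TG hearts, without overlap (difference -0.56, limma adjusted p = 0.9999). Serping1, the C1 inhibitor, was the 1 gene of the list with a higher TG mean. No gene of this list passed the threshold. Cfd, which encodes complement factor D, was counted among the adipocyte markers and differed by -1.81 (limma adjusted p = 0.0777, called lower by SAM).

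The lists closest to CSF1R, CD14, FCGR3 and ITGAM held 0 called genes. Spi1, the gene of PU.1, was in the list around CSF1R, but it was well above background on 0 arrays and was not tested. Of the tested ligands and transcription factors around CSF1R, 6 of 8 had a lower TG mean, and the ligand Csf1 had the largest difference, -0.24. Among the endotoxin receptor partners it was Myd88, an adaptor of Toll-like receptors, at -0.20, with 4 of 6 lower. Among Fc receptors and their signalling partners it was Tyrobp, a membrane adaptor, at -0.30, with 7 of 8 lower. Of the integrins and partners of the surface phosphatase, 7 of 8 were lower, and Itgax, the integrin chain CD11c, had hearts that did not overlap, at 6.67, 6.59 and 6.66 in WT and 6.39, 6.37 and 6.40 in TG hearts (difference -0.26, limma adjusted p = 0.9999).

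In the phagolysosome list, 7 of 9 genes were lower, with a median of -0.16. Ctss, the lysosomal protease cathepsin S, gave 11.52, 11.65 and 11.59 in WT and 11.25, 11.02 and 11.04 in TG hearts, without overlap (difference -0.48, limma adjusted p = 0.9999). Laptm5, a lysosomal membrane protein of blood cells, also did not overlap, at a difference of -0.20. The monocyte and inflammatory list had 5 of 6 tested genes lower. Plac8 differed by -0.76 (limma adjusted p = 0.398) and Retnla, a secreted product of alternatively activated macrophages and adipose tissue, by -0.72, both without overlap. Ccr2, the chemokine receptor of recruited monocytes, differed by -0.13, but by -0.60 with the processed signal and by 0.31 within the extended-range arrays. Cx3cr1 and Itgax, given above, stood at -0.57 and -0.72 with the processed signal. Il1b, an inflammatory cytokine too dim to be tested, was well above background on 3 arrays and gave 6.71, 6.25 and 6.51 in WT and 6.22, 6.07 and 6.16 in TG hearts, without overlap. The transcripts of Tnf, Il6, Il10 and Nos2 were well above background on 0 arrays.

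Other leukocytes that the tissue could hold were checked by their markers. Of 8 neutrophil markers with a probe, 2 were among those tested, and S100a8 differed by -0.35 with the highest value, 7.64, in WT heart 3. Of 10 T and NK cell markers, 3 were tested, with a median of 0.00, and Cd3e differed by 0.00, Thy1 by 0.04. All 3 tested B cell markers had a lower TG mean, with a median of -0.93. Of these, Cd79b, a chain of the B cell receptor complex, gave 9.27, 8.25 and 8.66 in WT and 7.24, 7.62 and 8.42 in TG hearts. Its hearts overlapped through TG heart 3 (difference -0.97, limma unadjusted p = 0.0206, adjusted p = 0.9999). Ms4a1, a surface antigen of B cells that was well above background on 5 arrays, gave 8.29, 7.75 and 8.05 in WT and 6.63, 6.86 and 7.79 in TG hearts, again with an overlap through TG heart 3 (difference -0.93, limma unadjusted p = 0.0130, adjusted p = 0.9999). Of 5 tested mast cell markers, 3 were lower and 2 higher, with a median of -0.07 and differences from -0.29, for Mcpt4, to 0.17. Since Ptprc is shared by these leukocytes, its values hold their transcripts too, and how much of its difference they account for was not tested. Among platelet markers, Pf4 did not overlap, at a difference of -0.27.

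Adipocyte markers held the only limma calls among the lists. In TG hearts, Adipoq fell by 1.93, Cidec fell by 2.02, Plin1 fell by 2.25 and Ucp1 fell by 3.23 on the log2 scale (limma adjusted p = 0.0339, 0.0386, 0.0339 and 0.0445), and SAM called all 6 tested markers lower. All 4 limma calls were lost with scan range as a block, with 75th percentile scaling, in the authors' table, with either other probe filter, and without WT heart 1, WT heart 3, TG heart 1 or TG heart 3, since limma called 0 of all probes in each of these settings. The differences stayed large over 23 alternatives, between -2.30 and -1.62 for Adipoq, -2.59 and -1.49 for Cidec, -2.48 and -2.04 for Plin1, and -3.86 and -2.05 for Ucp1. The list's median, relative to the WT mean, was 0.25, 0.01 and -0.20 in WT hearts and -1.81, -1.91 and -2.32 in TG hearts, so it parted the genotypes where the members did not. Lep, a further adipocyte marker, was well above background on 0 arrays. Marco, Hp, Plac8 and Retnla were also lower in every TG heart than in every WT heart, though of these SAM called Hp alone and limma none. Their values stand beside those of the adipocyte list, and what part it has in those values was not tested. Endothelial, fibroblast, mesothelial, cardiomyocyte and atrial markers had 0 calls, with list medians from -0.16 to 0.08. Pecam1 differed by 0.26, Kdr by -0.27, Col1a1 by -0.33, Msln by -0.33, Upk1b by -0.25 without overlap, Actc1 by 0.23, Myh6 by 0.16, Nppa by -0.21 and Hba-a1 by -0.23.

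**Figure D5:**
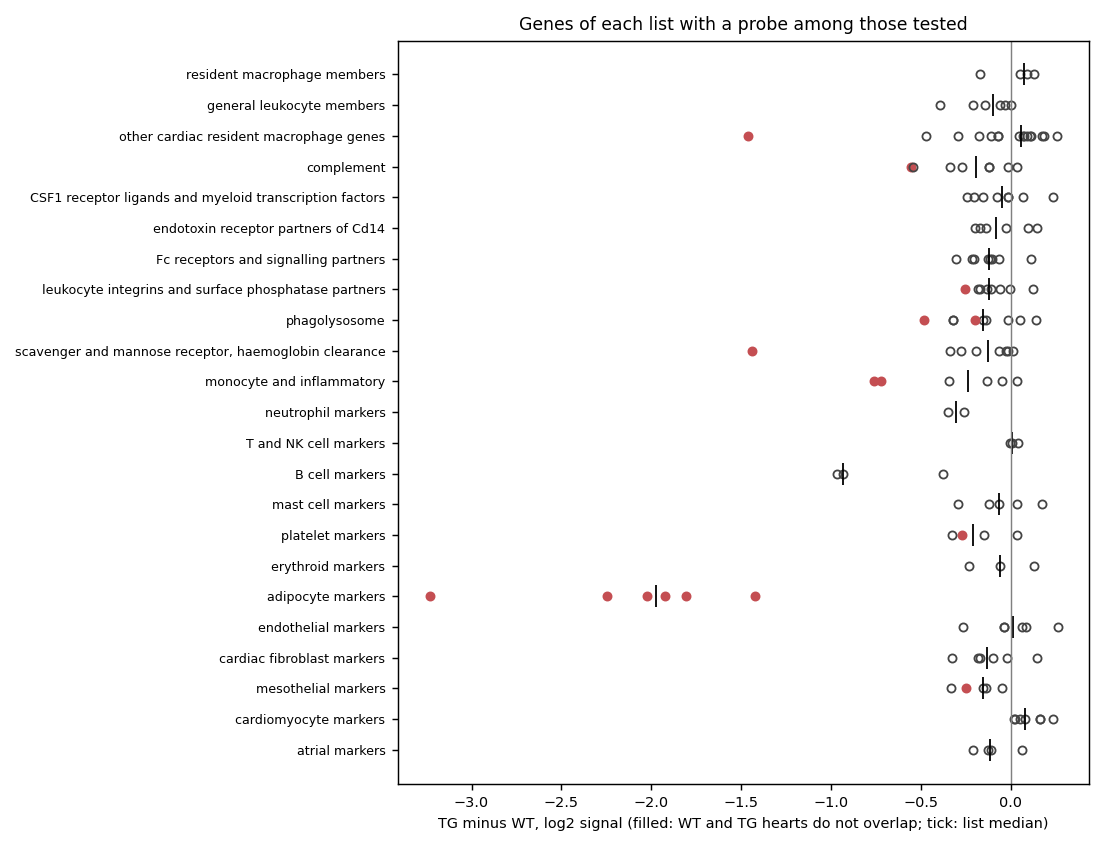
Difference of TG minus WT in log2 signal for every tested gene of the member, macrophage function and cell marker lists, 1 point per gene. Filled points are genes whose WT and TG hearts do not overlap and ticks are list medians; the 6 adipocyte markers lie from -3.23 to -1.43, and the members from -0.40 to 0.13.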

How the data were processed

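RNA of 3 WT and 3 TG-PKR1 hearts was measured on 6 single-dye Agilent arrays. The authors deposited, for each array, the spot intensity values that Agilent Feature Extraction 9.5.1.1 had written, not normalized across the arrays. A matrix of log2 values, deposited beside them, had been normalized to a median profile, averaged over replicate probes and filtered for high medians, and served as an alternative. All 6 value columns were matched to a heart.

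The log2 of the median spot signal, with no background subtracted, was the main value. Control and outlier spots were dropped, a loess curve (span 0.3, 4 iterations) took each array to the 6-array median profile, replicate spots were averaged, and the 20000 brightest probes by median were tested. Without background subtraction, differences of dim probes are drawn towards 0. limma 3.58.1 in R 4.3.3 compared genotypes, with Benjamini-Hochberg adjustment over all probes tested and a threshold of 0.05. SAM used all 20 assignments, read at an estimated false discovery rate of 0. Steps were tested on simulated data. Symbols of the lists came from RefSeq (GRCm38.p6), used for names and promoters only, which matched 15334 of the tested probes by accession, 2189 by name and 849 by synonym, while 1628 were left with their file name. Positions of probes refer to mm8. The number of arrays limits the precision.

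The members, the lists and the tests were chosen with earlier results of these data known, so patterns already seen are no independent support. The genes named are the 10 members, the genes of each list that passed the threshold or did not overlap (at most 4 a list), otherwise the gene with the largest difference, and a fixed set of cell markers, some of which are not reported here. Ms4a1, Il1b, Serping1, Lep, C1qc, Spi1 and undetected cytokines, which lie outside this rule, were named after their values were seen. C1s, Hbb-b1 and Ly6g had no probe. Most alternatives changed 1 choice, while the processed signal with 75th percentile scaling and normexp with quantile normalization changed signal or background and normalization together. The choices were signal, background correction, normalization, probe filter, outlier spots, the authors' table, variance prior, SAM, scan range, slide, leaving out a heart, and the mean over the probes of a gene. Loess drawn on the median profile alone, and the estimate of the within-slide correlation, were added after the data were seen.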

Additional observations from a re-analysis of the deposited data

How the results depend on the processing

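Over 24 alternatives, limma or SAM called 0 of the member probes in each of the 21 that gave a test, and the smallest adjusted p of a member's brightest probe was 0.829, for Ptprc. By limma, 0 or 1 member probe had an unadjusted p under 0.05, beside 276 to 1200 of all probes. Of 230 values of single members, 212 moved by less than the spread of the hearts within a genotype, 18 moved more, and 35 changed sign, 10 of them for Csf1r and 7 for Cd163. The median over the resident genes changed sign in 3 of 23 settings, and that over the general genes in 2.

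The median over the general genes was -0.23 within the extended-range arrays, 0.073 within the ordinary-range arrays and 0.049 within the slide with both genotypes. The median over the resident genes was 0.43 within the ordinary-range arrays. With a heart left out, the resident median ranged from -0.14 to 0.20, the general median from -0.19 to -0.06 and the gap between them from 0.00 to 0.33.

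The count of all probes called, 19 in the main setting, was 33 with quantile normalization in place of loess, 31 with a trended prior variance, 56 with SAM and 2 with loess on the median profile alone. limma called 0 with 75th percentile scaling, all probes, a filter on probes well above background (at least 3 arrays), the authors' table and scan range as a block, where 276, 1056, 574, 350 and 371 probes had an unadjusted p under 0.05. With a heart left out the count ranged from 0 to 19. It was 0 without WT hearts 1 or 3 or TG hearts 1 or 3 (1058, 353, 476 and 283 at an unadjusted p under 0.05), 8 without TG heart 2 and 19 without WT heart 2. The cause was not tested.

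The titles of WT heart 2 and TG heart 1 share a number, and these 2 hearts were on the same slide. The labels do not say what this number stands for, and the titles of the other hearts share none. No paired analysis was therefore made. The within-slide correlation rests on the 1 slide with 2 arrays. Its estimate was negative, at -0.48, so once genotype was fitted these arrays were less alike than arrays of different slides. The dim signal of Itgam limits what its difference can show, and 3 hearts per genotype limit all members.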
